A study of Rattus norvegicus with 145 samples.

Results

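The Oas and Mx antiviral genes were followed in the liver of rats given acetamide. They are 8 genes (Oas1a, Oas2, Oas3, Oasl, Oasl2, Mx1, Mx2 and Eif2ak2) of the 17337 genes in the count tables, and all 8 were found by symbol. They had been selected on their measured response to dose in these same rats, so every change with dose given for them is a description, with no test. RNA-seq was run on the left liver lobe of male and female Wistar rats that received acetamide in water once daily by gavage. Experiment A held Hsd:WI males of 9 to 10 weeks on daily doses of 0, 30, 100, 300 and 1000 mg/kg (written mkd) over 7 days. Experiment B held Crl:WI males and females of 8 to 10 weeks given 0, 300, 500, 750, 1000 or 1500 mkd for 7 or 28 days. The rats formed 29 groups of 5 separate animals, and the controls received the water vehicle alone.

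Type I interferons induce these genes in most cells through transcription factors that bind an interferon-stimulated response element (ISRE) in their promoters. The 2′-5′ oligoadenylate synthetases (Oas1a, Oas2, Oas3) sense double-stranded RNA and make short oligoadenylates, which act as second messengers of the antiviral response. Oasl and Oasl2 are OAS-like proteins with a ubiquitin-like tail. Mx1 and Mx2 are dynamin-like GTPases that trap viral components. Eif2ak2 encodes PKR, a kinase that stops translation by phosphorylating eIF2α once it has bound double-stranded RNA. In the liver, hepatocytes, Kupffer cells and other immune cells can all express them. Because whole liver was sequenced, more cells of a type and more RNA per cell cannot be told apart.

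The promoters are given to show which of the members hold the ISRE letters. Any link between these letters and the members' levels was not tested. RefSeq promoter sequences (GRCr8, 250 bases before to 50 after each gene's start) were held for 6 of the 8 members, Oas2 and Mx2 not among them. A core ISRE (GAAA, any 2 bases, GAAA, searched on both strands) was found in 4 of these 6 promoters (66.7%). It was found in 1312 of all 33469 promoters (3.92%), in 19 of 34 promoters of other interferon-stimulated genes (55.9%) and in 0 of 9 promoters of hepatocyte marker genes. Each stretch runs 5′ to 3′ along the gene's own strand, with the matching letters in capitals.
Oas1a, chr12:41330400-41330455, plus strand: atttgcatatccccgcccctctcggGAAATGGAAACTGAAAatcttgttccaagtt
Oas3, chr12:41439612-41439661, plus strand: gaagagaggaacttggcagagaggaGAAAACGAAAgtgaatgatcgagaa
Oasl2, chr12:47383312-47383361, minus strand: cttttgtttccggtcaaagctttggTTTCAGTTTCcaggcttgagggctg
Eif2ak2, chr6:21941113-21941153, plus strand: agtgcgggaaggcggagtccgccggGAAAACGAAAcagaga
Oas1a held 2 overlapping matches, from base -41 to -32 and from -35 to -26 relative to its start. The match lay at -95 to -86 in Oas3, at -16 to -7 in Eif2ak2 and, on the opposite strand, at -151 to -142 in Oasl2. The windows of Oasl and Mx1 did not hold these letters. The core of the interferon-gamma element (TTC and GAA with 3 free bases between, both strands) was found in 1 of the 6 promoters (16.7%), that of Oas1a at -199 to -191, and in 8.87% of all promoters. Reads had been aligned to an earlier build (Rn6), so these coordinates do not apply to the counts. In GRCr8 Oas2 and Oas3 are neighbours with 0 protein-coding genes between them, as are Oasl and Oasl2, while 1 gene lies between Mx1 and Mx2.

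The reads assigned to genes numbered 15449716 to 39986531 in a rat (median 28262376). All 10 hepatocyte markers checked were listed, and Alb had a median of 150965 CPM (reads of a gene per 1000000 reads of the library) over all rats of the study. CPM is calculated from the reads on the genes tested, after TMM scaling within each count table. Levels were not set side by side between genes, because no gene lengths were used. Each of the 5 tables (experiment A males, and experiment B males and females at 7 and 28 days) was normalized separately, so levels are compared within a table. Rats are numbered 1 to 5 within a group, and the same number in different groups marks different animals.

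Without acetamide the members were low and unequal between rats. In the vehicle controls of experiment A, Mx2 stood at 4.10, 36.1, 14.9, 20.2 and 26.5 CPM. Oas2 stood at 0.561, 3.16, 0.605, 1.05 and 0.427 CPM in the same rats. Rat 2 was the highest of the 5 controls for both genes, and its mean log2 ratio to the control median over the 8 members was 1.44, against -0.87 to 0.34 in the other 4 controls. In the controls of experiment B females of 28 days, Oasl2 had 4.51, 5.31, 4.15, 5.46 and 5.16 CPM (mean 4.92 ± 0.563, SD, n = 5) and Oas2 averaged 2.37 ± 0.285 CPM (SD, n = 5), while Mx2 ranged from 20.3 to 179 CPM. Eif2ak2 varied least of the members over all rats of the study (each table scaled on its own), with levels from 25.4 to 132 CPM, a 5.19-fold range. Mx2 varied most, from 4.10 to 1722 CPM (420-fold). The ranges of the other 6 members spanned 80.9-fold (Oas1a) to 279-fold (Mx1).

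**Figure D1:**
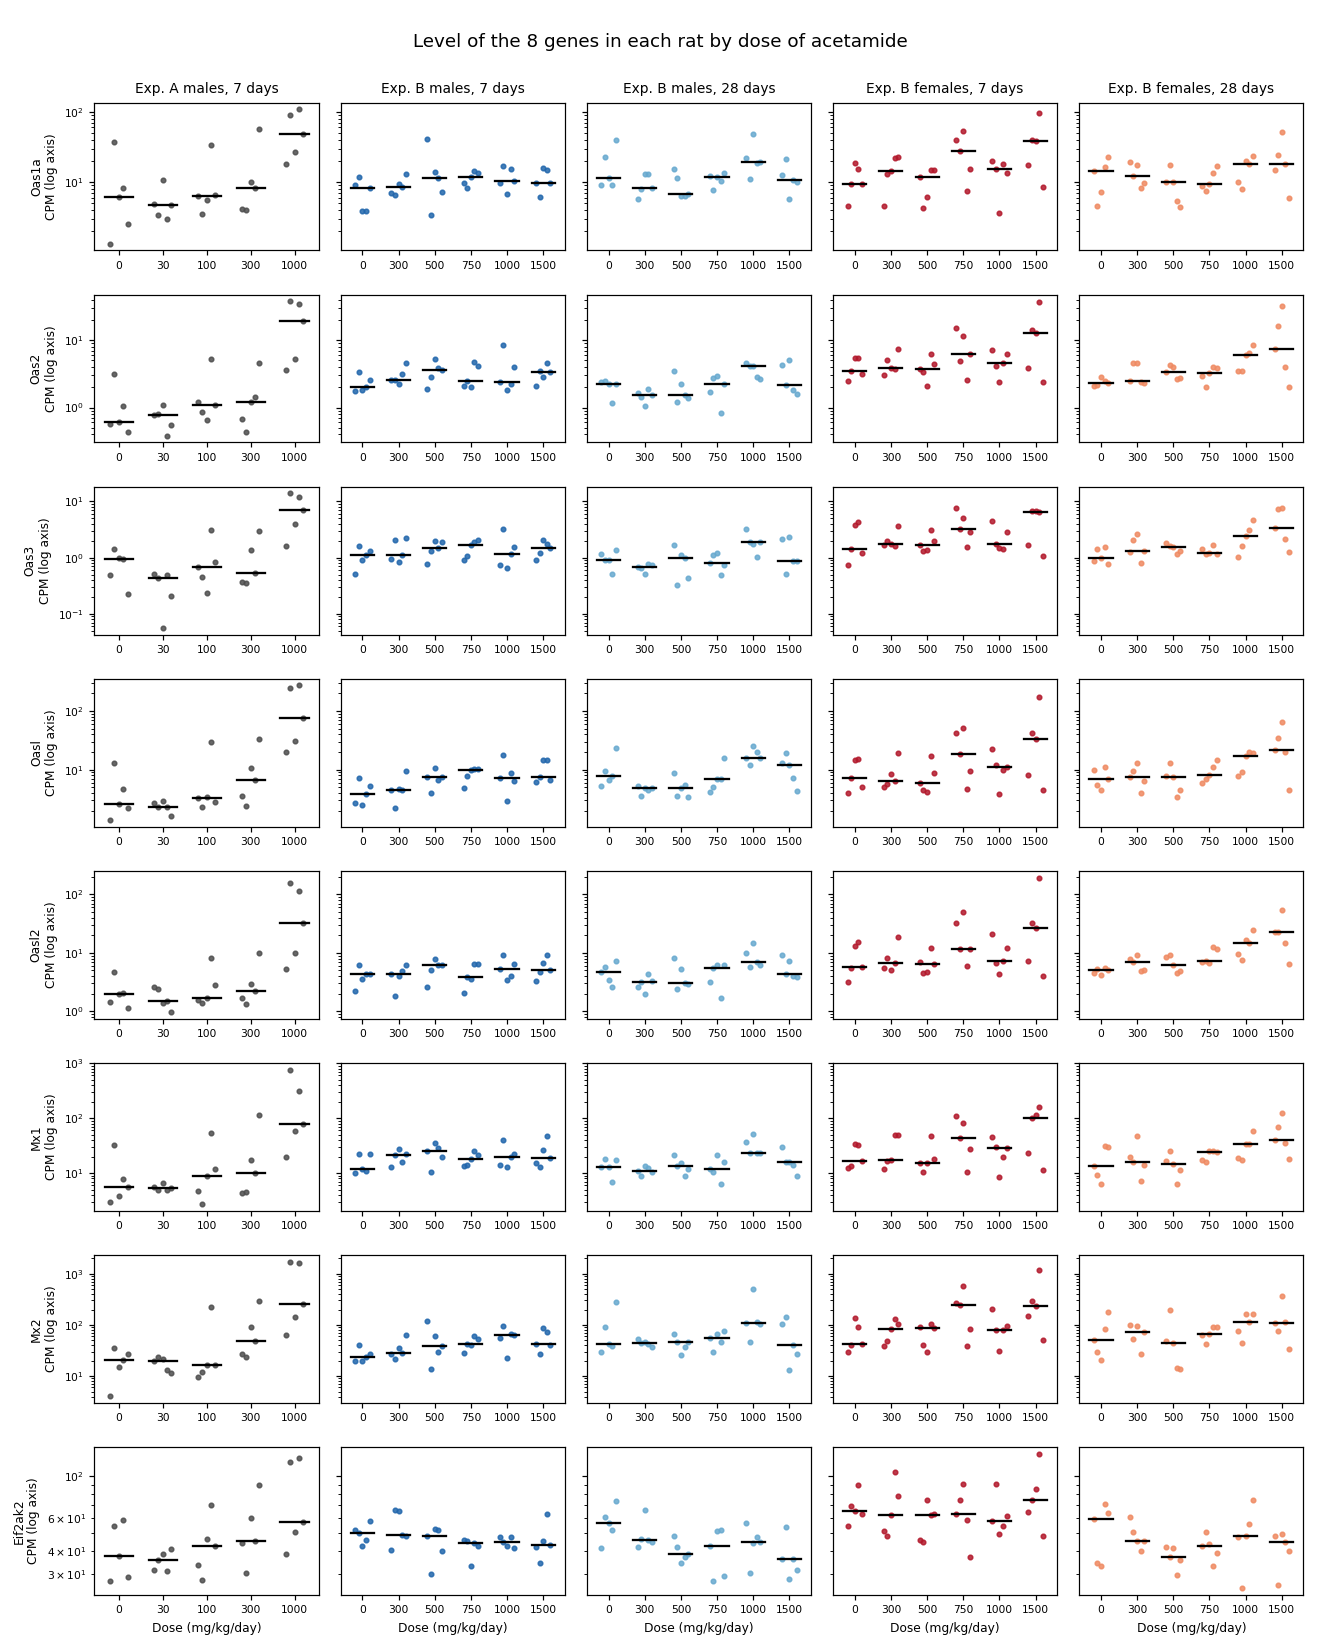
Level of each of the 8 genes (rows, CPM on a log axis) against acetamide dose (mkd) in the 5 count tables (columns). Each point is 1 rat and each short black line is a group median, so the rise at 1000 mkd in experiment A, the wider scatter in females and the overlap of most treated rats with controls in males of experiment B can be read directly.

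In experiment A at 1000 mkd all 8 members were higher than in controls. Their median log2 fold change was 4.34, and 8 of 8 passed the call rule (|fold change| ≥ 1.5 and adjusted p ≤ 0.05), where 14.0% of all genes tested were called higher. Since these contrasts chose the members, nothing is read from that count. It was 6 or 7 without control rats 1, 3, 4 or 5 or treated rats 2 or 4, each left out alone, and 8 without any of the other 4. At 300, 100 and 30 mkd the medians were 0.66, 0.56 and -0.82. At each of these doses 0 of 8 members and 0 of all 11323 genes tested were called.

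Among the synthetases, Oas2 rose from the control levels above to 3.66, 37.7, 5.23, 34.7 and 19.5 CPM at 1000 mkd. All 5 treated rats were above every control, and the log2 fold change was 4.12 ± 0.75 (SE). Oas3, the largest protein of the family, went from 0.491, 1.42, 0.983, 0.933 and 0.230 CPM to 1.62, 13.9, 3.99, 11.9 and 7.19 CPM, again without overlap (log2 fold change 3.25 ± 0.68). Oas1a had 1.33, 36.7, 6.20, 8.19 and 2.53 CPM in controls and 18.3, 88.4, 26.6, 108 and 48.5 CPM at 1000 mkd. Only 3 of its 5 treated rats were above the highest control, rat 2. Its log2 fold change was 2.40 ± 0.83, and 3.66 without that control. The rat genome carries several near-identical Oas1 genes, so reads of Oas1a and its copies may have been exchanged.

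The OAS-like genes separated treated from control rats fully. Oasl went from 1.40, 12.8, 2.65, 4.76 and 2.20 CPM to 20.3, 249, 30.4, 270 and 75.3 CPM (log2 fold change 4.76 ± 0.91). Oasl2 went from 1.44, 4.68, 1.97, 2.08 and 1.15 CPM to 5.22, 155, 9.93, 116 and 32.6 CPM (4.82 ± 0.81). In both genes all 5 treated rats exceeded every control, but the treated rats themselves differed more than 10-fold, with rats 2 and 4 the highest and rat 1 the lowest.

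Mx2 showed the largest difference of the 8 genes in this table, 5.23 ± 1.07 on the log2 scale. Its levels at 1000 mkd were 64.6, 1722, 146, 1641 and 253 CPM, with no overlap with controls. Mx1 went from 2.98, 32.4, 3.89, 7.68 and 5.71 CPM to 20.1, 769, 58.4, 314 and 78.1 CPM (4.56 ± 1.08), and 4 of 5 treated rats were above every control. Eif2ak2 had the smallest difference, 0.91 ± 0.32, with 38.6, 118, 50.7, 125 and 57.1 CPM against 27.5, 54.3, 37.7, 58.3 and 29.0 CPM in controls. Only rats 2 and 4, which were also high for the other members, had Eif2ak2 above every control. Over the 8 members, 5 had all treated rats above all controls (Oas2, Oas3, Oasl, Oasl2 and Mx2), as had 9.01% of all genes tested at that dose.

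Below 1000 mkd single rats of experiment A reached the levels of the highest dose. At 100 mkd, rat 4 had 228 CPM of Mx2, 53.1 CPM of Mx1, 29.3 CPM of Oasl and 33.2 CPM of Oas1a, and was the highest of its group in all 8 members. At 300 mkd the same was true of rat 5, with 292 CPM of Mx2, 113 CPM of Mx1 and 33.0 CPM of Oasl. In each of these groups 1 of 5 rats had 6 or more members above every control, against 0 of 5 at 30 mkd and 4 of 5 at 1000 mkd. These rats also held the highest summed macrophage markers of their groups: 1625 CPM in rat 4 at 100 mkd (others 859 to 1041 CPM) and 2161 CPM in rat 5 at 300 mkd (others 782 to 1093 CPM). The part of macrophage content in these rats' levels was not tested.

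**Figure D2:**
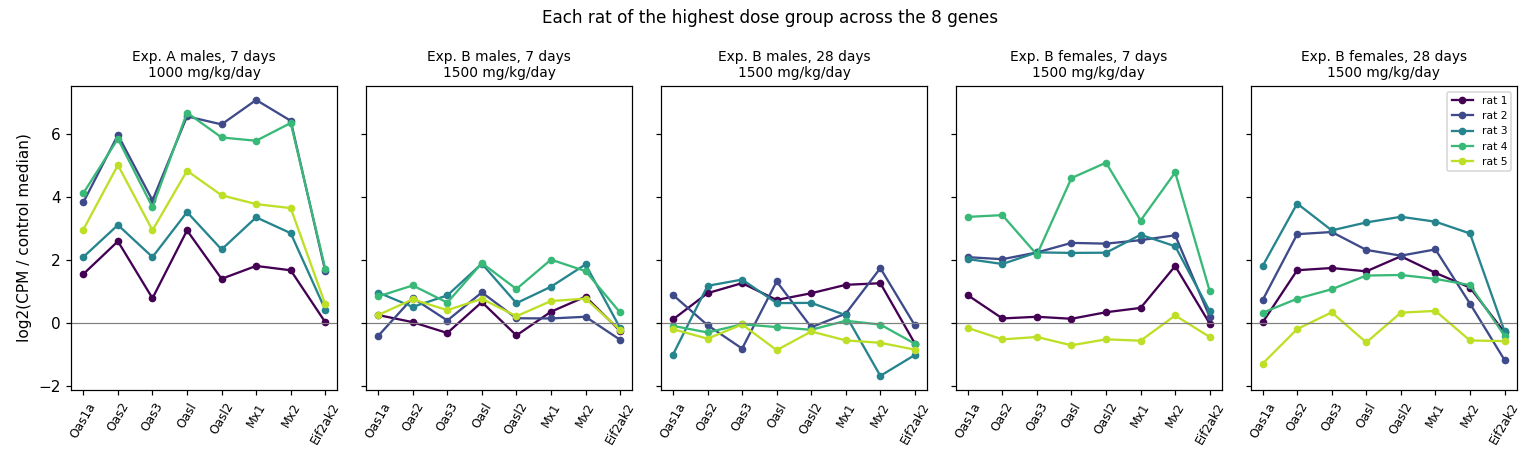
Log2 ratio of each rat's level to the control median (vertical axis) for the 8 genes at the highest dose of each table, with 1 line per rat. In experiment A at 1000 mkd all rats lie above 0 on average (mean over the members 1.41 to 4.93), whereas in females of experiment B 1 rat of each time-point lies below it (-0.34 and -0.26).

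In experiment B females after 28 days, the members rose in part, at the highest doses. At 1500 mkd the median log2 fold change was 1.82 and 5 of 8 members were called higher (Oas2, Oas3, Oasl, Oasl2 and Mx1), where 9.55% of all genes tested were. The count was 3 with only the 2 groups compared and 4 without treated rat 3. At 1000 mkd the median was 0.91 and 1 of 8 (Oasl2) was called, where 1.23% of genes were. At 300, 500 and 750 mkd the medians were 0.16, -0.13 and 0.27, with 0 of 8 called. Of all genes tested 0%, 0.0349% and 0.183% were called at these doses.

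Oasl2 separated treated from control rats at each of the 3 upper doses. Its levels were 6.89, 7.18, 6.83, 12.5 and 11.6 CPM at 750 mkd. They were 9.57, 7.61, 16.8, 15.0 and 24.2 CPM at 1000 mkd and 22.4, 22.8, 53.4, 14.9 and 6.51 CPM at 1500 mkd. None of these rats overlapped the controls (4.15 to 5.46 CPM), and the log2 fold changes were 0.87 ± 0.37, 1.57 ± 0.37 and 2.29 ± 0.37. All treated rats lay above all controls in 1.72% of genes at 750 mkd, in 2.79% at 1000 mkd and in 3.51% at 1500 mkd. At these doses this held for 1 (Oasl2), 2 (Oas2 and Oasl2) and 1 (Oasl2) of the 8 members.

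Oas2 in these females went from 2.06, 2.20, 2.81, 2.45 and 2.32 CPM in controls to 3.51, 3.50, 6.09, 6.47 and 8.60 CPM at 1000 mkd. At 1500 mkd it had 7.43, 16.4, 32.1, 3.98 and 2.04 CPM (log2 fold change 2.39 ± 0.46). Rat 5 was below every control, and the other 4 were above them all. The same rat was the lowest of its group in 7 of the 8 members, while rat 3 was the highest in all 8. Oas3 (1.98 ± 0.41), Oasl (1.95 ± 0.46) and Mx1 (1.69 ± 0.50) had 4 of 5 rats above every control. Mx2 at 1500 mkd had 110, 77.1, 360, 116 and 34.3 CPM, of which 1 rat exceeded the control range of 20.3 to 179 CPM (0.95 ± 0.64). Oas1a differed by 0.82 ± 0.45, with 2 rats above every control. Eif2ak2 differed by -0.33 ± 0.22, and its levels of 26.2 to 49.2 CPM lay within or below the control range of 33.1 to 71.1 CPM.

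In females after 7 days at 1500 mkd the fold changes were large but uneven among rats. The median log2 fold change was 1.87 and all 8 members were positive. Yet 0 of 8 passed the edgeR call rule, where 0.522% of all genes tested were called higher. DESeq2 called 4, and 6 had an edgeR unadjusted p below 0.05, as had 1688 of all 11497 genes tested. Nothing is read from these counts, as the response to dose had chosen the members. Oasl2 had 7.31, 33.0, 27.0, 195 and 4.04 CPM, against 3.21, 5.52, 13.3, 15.3 and 5.75 CPM in controls (2.64 ± 0.74). Oasl had 7.97, 42.2, 33.8, 175 and 4.45 CPM, against 3.98, 7.22, 14.5, 15.2 and 5.09 CPM (2.52 ± 0.74). Rat 4 held the highest Oasl2 level of all rats, whereas rat 5 was the lowest of its group in all 8 members and lay within the control range for both genes.

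Mx2 in the same group had 151, 297, 234, 1183 and 51.1 CPM, with 4 rats above the controls (29.8 to 136 CPM, log2 fold change 2.49 ± 0.69). Mx1 had 23.1, 102, 115, 157 and 11.2 CPM (1.90 ± 0.63) and Oas2 had 3.85, 14.1, 12.7, 37.3 and 2.43 CPM (1.83 ± 0.52), each with rats 2, 3 and 4 above every control. Eif2ak2 differed by 0.24 ± 0.25. Leaving out treated rat 1 or treated rat 5 brought 6 of 8 members past the call rule. The lower doses did not form an even series: the medians were 0.15, -0.16, 1.32 and 0.29 at 300, 500, 750 and 1000 mkd. At 750 mkd 3 rats held the higher values, with Mx2 at 272, 250 and 577 CPM in rats 1 to 3 and at 38.5 and 84.2 CPM in rats 4 and 5.

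In males of experiment B after 7 days at 1500 mkd the median log2 fold change was 0.55. Of the 8 members 0 were called by edgeR and 0 by DESeq2, where 0.142% of all genes tested were called higher by edgeR. An edgeR unadjusted p below 0.05 was held by 2 members and by 1429 of all 11304 genes tested, and nothing is read from it. Mx2 had 42.4, 27.3, 86.2, 74.3 and 40.7 CPM, against 19.7, 40.0, 19.8, 23.7 and 26.4 CPM in controls (1.06 ± 0.42), with 4 of 5 rats above every control. Oasl had 6.17, 7.63, 14.3, 14.5 and 6.63 CPM, against 2.75, 7.20, 2.54, 3.88 and 5.26 CPM (1.18 ± 0.39), with 3 rats above. The other 6 members differed by -0.11 (Eif2ak2) to 0.64 (Mx1). The medians at 300 to 1000 mkd were 0.31, 0.61, 0.44 and 0.59, with no ordering by dose.

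After 28 days, all members but Eif2ak2 had their highest group median in males at 1000 rather than 1500 mkd. At 1000 mkd the median log2 fold change was 0.83 and Mx1 alone was called (1 of 8, where 0.949% of all genes tested were called higher). Mx1 had 37.4, 23.7, 52.1, 23.4 and 23.1 CPM, all above the controls of 13.1, 18.4, 13.0, 6.90 and 17.3 CPM (1.22 ± 0.32). Oas2 likewise had 4.62, 4.09, 4.09, 2.81 and 2.64 CPM, all above the controls of 2.43, 2.44, 2.24, 1.18 and 2.23 CPM (0.79 ± 0.34). All treated rats exceeded all controls in 2 of 8 members, Mx1 and Oas2, and in 4.59% of all genes tested.

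At 1500 mkd the median was 0.19. Here Mx1 had 30.5, 16.2, 15.7, 13.8 and 9.00 CPM and Oas2 had 4.34, 2.15, 5.10, 1.83 and 1.60 CPM, overlapping the controls in both genes. Of the 8 members 0 were called higher, where 3.16% of genes were, and 1 (Eif2ak2) was called lower, where 1.76% were. Eif2ak2 had 36.2, 53.8, 28.2, 36.1 and 31.7 CPM, against 41.6, 60.2, 56.5, 51.6 and 73.9 CPM in controls (log2 fold change -0.61 ± 0.19), with 4 rats below every control. This call was lost when any of 4 of the 5 controls (rats 2, 3, 4 and 5) or any of 4 of the 5 treated rats (1, 3, 4 and 5) was left out. Mx2 had 102, 142, 13.3, 41.1 and 27.6 CPM, against 29.5, 89.6, 42.3, 38.6 and 285 CPM, and its difference of -0.58 ± 0.60 turned to 0.35 in 1 of 16 alternatives. Treated rat 3 (Rv2655) was lowest for Mx2 and Eif2ak2 and highest for Oas2. The paper called this rat an outlier for Ki67, its measure of cell proliferation, and left it out of that modelling. Its hepatocyte marker sum was 111412 CPM, against 183555 to 225380 CPM in the rest of its group. At 300, 500 and 750 mkd the medians were below 0 (-0.57, -0.31 and -0.29), and 0 of 8 members were called. Of all genes tested 0%, 0% and 0.780% were called at these doses.

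**Figure D3:**
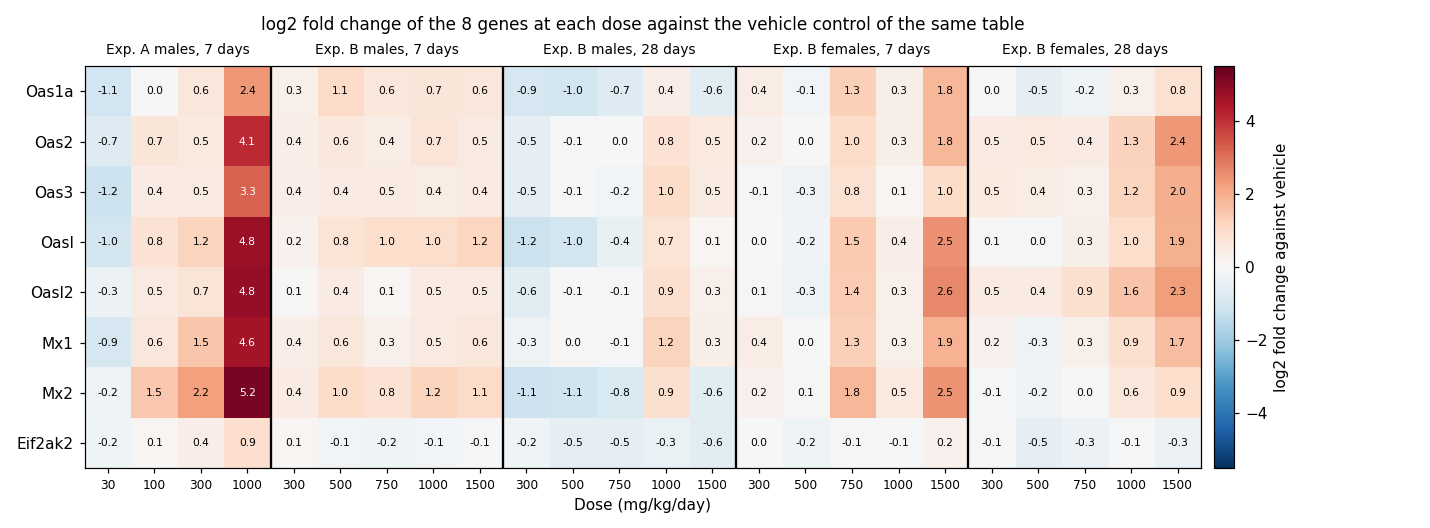
Log2 fold change against the vehicle control of the same table (colour and printed value) for the 8 genes (rows) at each of the 24 dose contrasts (columns). Values are largest at 1000 mkd in experiment A (0.91 to 5.23), and Eif2ak2 stays between -0.61 and 0.91 in all contrasts.

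The order of the groups by median level followed dose in experiment A only at its upper end. All 8 members had their highest median at 1000 mkd there, and the neighbouring groups in the order overlapped in 31 of 32 pairs. In 7-day females 7 of 8 members were highest at 1500 mkd, Mx2 being highest at 750 mkd (median 250 CPM). In 28-day males 7 of 8 were highest at 1000 mkd and Eif2ak2 in the controls. Neighbouring groups overlapped in 40 of 40 pairs in 7-day males, 39 of 40 in 28-day males, and 40 of 40 in females at each time. How often neighbouring groups overlap among all genes was not counted, so these counts are not read as a trait of the members. Males given 1000 mkd for 7 days occur in both experiments, each with its own controls, and their median log2 fold changes stood at 4.34 in experiment A and 0.59 in experiment B. The experiments lie in separate tables and used different Wistar stocks, and this difference was not tested.

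Sex, duration and experiment were compared in the 25 vehicle rats in a single fit. The choice of members rested on dose and not on these contrasts. The same rats were its controls, however, so the contrasts are not independent of that choice. Of the 8 members 0 were called in each of these contrasts by edgeR, and 0 by DESeq2 in the 5 that were run with it. The share of all 11297 genes called was 7.95% for females against males at 7 days and 11.8% at 28 days. It was 0.0266% for 28 against 7 days in males, 0.859% for the same in females, 1.22% for experiment A against B males at 7 days, and 0% for the interaction of sex with time. Of the 8 members 1, 0, 2, 1, 1 and 0 had an edgeR unadjusted p below 0.05 in these 6 contrasts. In the same order, 2632, 3641, 1202, 2208, 1930 and 1096 of all 11297 genes had such a p. Every contrast sets tables against each other, so sex, duration and experiment cannot be told apart from how each table was made. The experiments also used different Wistar stocks (Hsd:WI in A, Crl:WI in B), which cannot be told apart from the experiment.

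All 8 members were higher in control females than in control males at 7 days, by 0.30 to 1.22 on the log2 scale, and none of these differences passed. Oasl2 had 2.73, 4.66, 11.3, 12.8 and 4.87 CPM in females (mean 7.28 ± 4.48, SD, n = 5) and averaged 3.94 ± 1.35 CPM in males, and the ranges overlapped (0.88 ± 0.38, edgeR adjusted p = 0.155). At 28 days the direction was mixed, with 3 of 8 members higher in females. Mx2 in control males averaged 24.8 ± 8.11 CPM at 7 days and 93.6 ± 104 CPM at 28 days, where 1 rat had 275 CPM and the other 4 had 28.3 to 86.1 CPM (1.91 ± 0.64, edgeR adjusted p = 0.375). Oas2 averaged 1.16 ± 1.14 CPM in experiment A controls and 2.21 ± 0.67 CPM in experiment B control males at 7 days (-0.93 ± 0.39, edgeR adjusted p = 0.212). Without rat 2 of the experiment A controls that difference was -1.73 with an edgeR adjusted p of 0.00421.

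**Figure D4:**
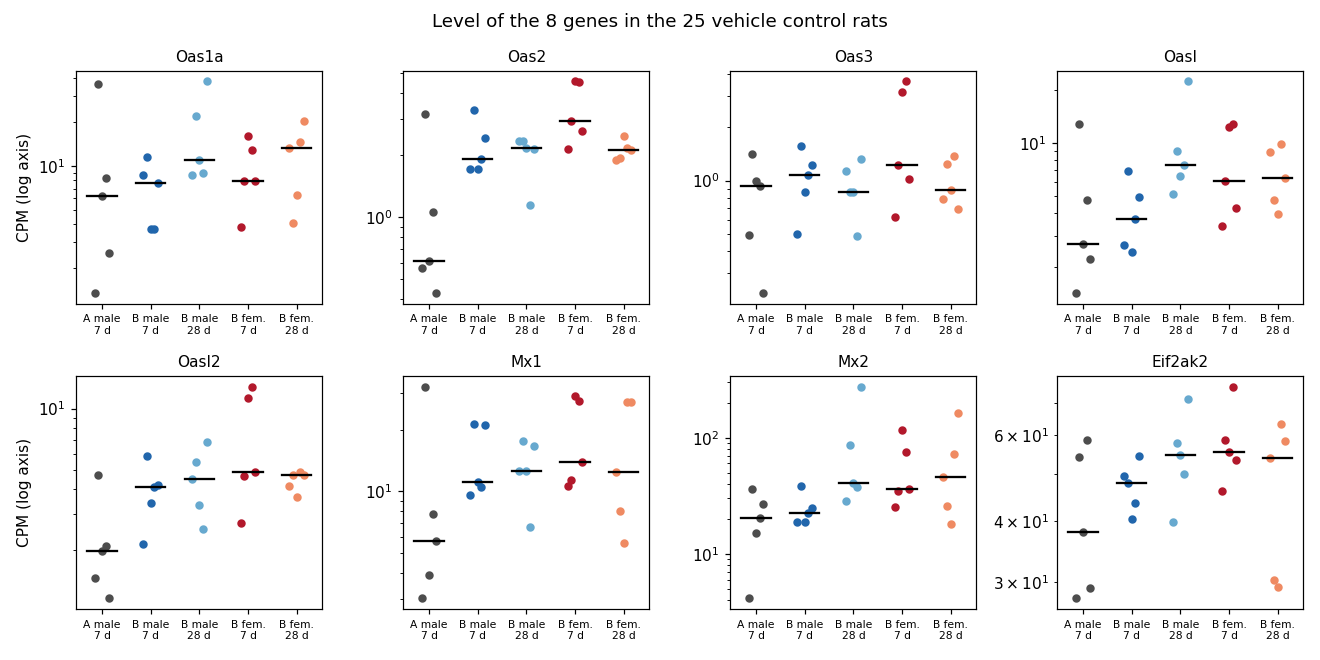
CPM (log axis) of the 8 genes in the 25 vehicle rats, 5 per group, with 1 point per rat, a black line at each group median and the scaling of the fit over all controls. The groups overlap for each gene shown, and single rats such as the 28-day control male with 275 CPM of Mx2 stand above the rest of their group.

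The members varied together from rat to rat within a dose group. After centring log2 CPM on the group mean, the 28 pairs of members had a median Spearman's rho of 0.72 across all rats of the 29 groups, as a description over rats that share library preparation and tables. In these values 2 sets could be seen, noticed after the correlations were computed and not tested. Oas2, Oas3 and Oasl2 correlated with one another at 0.84 to 0.87, and Oas1a, Oasl, Mx1 and Mx2 at 0.81 to 0.87. Between the sets rho was 0.53 to 0.81 (median 0.71), and with Eif2ak2 it was 0.28 to 0.66. The line between the sets is not sharp. The chromosomal neighbours Oasl and Oasl2 were placed in different sets, yet they correlated at 0.808. The lowest rho within the second set was 0.815, for the neighbours Mx1 and Mx2.

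The correlations differed between tables. As a pair from different sets, Oas2 and Mx2 correlated at 0.77 in experiment A and at 0.78 in 7-day females, but at 0.06 in 28-day males (0.41 in 7-day males and 0.52 in 28-day females). Oas1a and Mx2 stayed between 0.78 and 0.93 in all 5 tables, and Oas2 and Oas3 between 0.79 and 0.87. The median over pairs was 0.85 in experiment A, 0.61 and 0.45 in males at 7 and 28 days, and 0.86 and 0.75 in females. In 28-day males 22 of 28 pairs were positive, and the lowest was Oas2 with Eif2ak2 (-0.21).

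The markers of liver cell types correlated unequally with the members, in a graded order with no gap between the 2 sets for macrophage markers. Each list was taken as the mean of its markers' log2 levels, centred on the group mean. For 11 macrophage markers rho was 0.69 with Oas2, 0.64 with Oas3 and 0.53 with Oasl2. It was 0.30 with Oas1a, 0.24 with Mx2 and 0.06 with Eif2ak2, while Mx1 (0.52) and Oasl (0.42) lay between. The 5 T and NK cell markers tested in all tables gave 0.62 with Oas2, 0.59 with Oas3 and 0.51 with Oasl2. They gave 0.39 with Mx1, 0.31 with Oasl, 0.16 with Oas1a, 0.15 with Mx2 and 0.05 with Eif2ak2. The hepatocyte markers gave -0.30 with Oas2, -0.31 with Oas3, -0.21 with Oasl2 and -0.12 with Oasl. With Mx1 they gave -0.02, with Oas1a 0.01, with Mx2 0.02 and with Eif2ak2 0.16.

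Several of the marker lists, but not all, also moved with dose where the members rose most. In experiment A at 1000 mkd, 7 of 11 macrophage markers were called higher (summed level 611 to 1864 CPM in controls and 1527 to 2714 CPM in treated rats). Of the T and NK markers 7 of 9 were higher, and the list summed to 24.0 to 30.6 CPM in controls and 42.1 to 76.7 CPM in treated rats, without overlap. Cd4 makes up most of this sum, so the sum is mainly the level of that gene. Its median over all rats was 27.2 CPM, against 0.10 to 3.64 CPM for the other genes of the list. Of the 10 hepatocyte markers 4 were lower, and their sum was 253255 to 338752 CPM in controls and 77631 to 247030 CPM in treated rats, again without overlap. Alb, the plasma albumin gene, differed by -0.91 on the log2 scale. Of the endothelial markers 3 of 6 were higher (70.0 to 156 CPM in controls and 126 to 230.0 CPM in treated rats), as were 2 of 3 plasmacytoid dendritic cell markers (2.29 to 3.61 and 3.15 to 7.75 CPM). The neutrophil sum was lower without overlap (3.02 to 9.66 and 1.71 to 2.57 CPM). The B cell sums (0.820 to 2.57 and 0.739 to 1.42 CPM) and cholangiocyte sums (11.0 to 26.0 and 12.9 to 21.1 CPM) overlapped. Of all genes tested 14.0% were called higher and 7.45% lower at this dose. In 28-day females at 1500 mkd, 4 of 11 macrophage markers and 2 of 8 T and NK markers were higher, where 9.55% of all genes tested were. Their macrophage sums were 1162 to 1419 CPM in controls and 1323 to 2595 CPM in treated rats. Their hepatocyte sums did not overlap, at 199388 to 385509 CPM in controls and 93852 to 198106 CPM in treated rats.

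In 7-day females at 1500 mkd 0 markers were called, where 0.705% of all genes tested were. Their macrophage sums were 1167 to 2054 CPM in controls and 1082, 2286, 2297, 1336 and 1157 CPM in treated rats 1 to 5. Rats 2 and 3, high for the members, thus lay above every control, and rat 4, the highest for 7 members, lay within the control range. The hepatocyte sums of 4 of the 5 treated rats (183684 to 208578 CPM) were below every control (216335 to 296004 CPM), and rat 4 had 242048 CPM. In 28-day males at 1500 mkd 0 of 11 macrophage markers were called, where 4.91% of all genes tested were. The macrophage sums were 384 to 985 CPM in controls and 647 to 1580 CPM in treated rats. Neutrophil markers were sparse, with Elane at 0 counts in 115 rats and Mpo at 0 in 91. The part of these cell types in the members' values was not tested.

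Of 11058 genes tested in all tables, Irf7, the interferon-induced regulator of type I interferon genes, tracked the mean of the members most closely (rho 0.93 across all rats). It was followed by Isg15, an interferon-induced ubiquitin-like protein (0.89), Uba7, the E1 enzyme that activates Isg15 (0.88), Ifit3 (0.86) and Oas1b (0.86). Ly6e, Cmpk2 and Usp18 reached 0.85, Dhx58 0.84 and Slfn3 0.82, where the median over all genes was -0.01. Of these 10 genes 8 are in the interferon lists examined, and 7 stayed among the 10 closest when levels were not centred.

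The other genes of the pathway were taken from lists of 79 tested genes: relatives of the members, interferon ligands and receptors, signalling factors, brakes, nucleic acid sensors and other interferon-stimulated genes. These lists had been drawn up with earlier results of these rats known. In experiment A at 1000 mkd 48 of the 79 were called higher and 0 lower. In experiment B at 1500 mkd, 19 were called higher and 1 lower in 28-day females, 6 and 1 in 7-day females, and 1 and 3 in 28-day males. The shares of all genes called higher in these contrasts were 9.55%, 0.522% and 3.16%, and 14.0% in experiment A. The total of 7 in 7-day females fell to 0 with only the 2 groups compared or with the replicate number as a block. It was 0 or 1 without any single control or treated rat 2, 3 or 4, and 17 without treated rat 1 or treated rat 5. The total of 20 in 28-day females fell to 7 with only the 2 groups compared and to 13 without treated rat 2 or treated rat 3. In 7-day males edgeR called 0 of the 79 and DESeq2 called 6. An edgeR unadjusted p below 0.05 was held by 14 of them, and by 1429 of all 11304 genes tested.

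Of the relatives of the members, both Oas1 copies tested were called higher in experiment A at 1000 mkd: Oas1b (log2 fold change 2.76 ± 0.64, edgeR adjusted p = 0.00285) and Oas1k (2.42 ± 0.78, adjusted p = 0.0217). Of the 10 other genes of the eIF2 kinase list, to which PKR belongs by function, 2 were higher in experiment A, Ddit3 (1.62, edgeR adjusted p = 0.000393) and Ppp1r15a (0.72, adjusted p = 0.0334), with a list median of -0.22 and 14.0% of all genes called higher. Eif2ak1, the haem-regulated eIF2α kinase, was lower in 28-day males at 1500 mkd (-0.70, edgeR adjusted p = 0.0101), the contrast in which Eif2ak2 was lower too. Of the 3 dynamins tested, the wider family of the Mx GTPases, 0 were called at 1000 mkd.

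Upstream of the members, 5 of 13 signalling genes were higher in experiment A at 1000 mkd. Irf7 rose by 4.09 ± 0.91 (edgeR adjusted p = 0.00205). Irf7 was also higher in 28-day females at 1500 mkd (2.47 ± 0.55, edgeR adjusted p = 0.00293). Of the 11 ligands and receptors found in the files, 4 passed the filter on low counts in experiment A, of which Il10rb, a subunit of the interferon-lambda receptor, was higher at 1000 mkd (0.61, edgeR adjusted p = 0.00391). The brakes were higher for 4 of 6 genes, among them Usp18 (2.35, adjusted p = 0.0444), which blocks the type I receptor, and Socs1 (2.00, adjusted p = 0.00452). The calls of Usp18 and Ppp1r15a were lost in 8 and 6 of 16 alternatives, among them those without treated rat 2 and without treated rat 4. Of 9 sensors 7 were higher, led by the nucleic acid sensor Zbp1 (4.06, edgeR adjusted p = 0.000763) and Tlr7, an endosomal receptor for single-stranded RNA (1.77, adjusted p = 0.00105).

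Of 31 other interferon-stimulated genes tested in experiment A, 26 were higher at 1000 mkd, with a median log2 fold change of 1.53 over the list. Rsad2 (viperin, which blocks viral RNA synthesis) rose by 6.82 ± 0.94 (edgeR adjusted p = 9.33e-05), Ifit3 by 5.87 ± 0.99 (adjusted p = 0.000312) and Isg15 by 5.20 ± 1.03 (adjusted p = 0.000933). In 7-day females at 1500 mkd, where no member was called, Rsad2 (4.28) and Isg15 (3.86) passed (edgeR adjusted p = 0.0354 for both), but with only the 2 groups compared 0 genes of the lists passed. In 28-day females Rsad2 rose by 2.48 (edgeR adjusted p = 0.00137).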

How the data were processed

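Liver RNA was sequenced (75-base single-end reads, TruSeq stranded mRNA kit). The authors trimmed the reads with Trimmomatic, aligned them to the rat genome (Rn6) with Bowtie2, counted them on genes with HTSeq and deposited the raw counts, without normalization, in 5 tables. Tool versions and the strand setting of the counting are not given in the sources used here. In the 120 rats of experiment B the summary lines that name no gene made up 35.5 to 67.1% of the deposited counts and were left out. Reads on genes were 15449716 to 39986531 per rat, and 0 pairs of columns were identical. The 28-day control males are labelled with experiment A and were used with the 28-day male table that holds them.

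Each table, all dose groups together, was analysed in edgeR 4.0.16 (R 4.3.3) with quasi-likelihood F-tests, TMM normalization and the default filter on low counts, which left 11279 to 11497 genes. Calls required |fold change| ≥ 1.5 and adjusted p ≤ 0.05 (Benjamini-Hochberg, over all genes tested). The vehicle rats were compared in 1 fit of 25 rats (11297 genes). SE is the log2 fold change divided by the root of F. Likeness is Spearman's rho of log2(CPM + 0.5), centred on the dose group mean. Scripts were tested on simulated data.

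The members and gene lists were chosen with earlier results of these data known. Genes named are the members, at most 4 per pathway list (the largest changes among those called at the highest dose of a table) and the 10 genes most like the members, except that 2 genes of the lists are not reported here. Alternatives were DESeq2 1.42.0, its size factors, no low-count filter, a minimum of 10 counts per rat, a block on replicate number, only the 2 groups compared, and leaving out each rat. Whether replicate numbers pair rats was checked by correlating deviations from group means, and r lay between -0.29 and 0.39, not above 0.1 for every pair in any table. Pairs of unlike number were not compared. In experiment A the numbers differ from those of the sample titles at some doses. The check therefore cannot exclude a link by number.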

Additional observations from a re-analysis of the deposited data

Results flagged for a closer look

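Single rats far from the other 4 of their group were looked for on the log2(CPM + 0.5) scale by Dixon's ratio (above 0.71) in the 232 combinations of a member and a group. Of these 9 were found, 6 high and 3 low, in 6 groups. Chance marks about 1 in 20 combinations, so 9 of 232 is no more than chance gives. In experiment A at 100 mkd, 4 of them belong to a single rat, rat 4. It had 33.2 CPM of Oas1a where the others had 3.49 to 6.53, and 5.26 CPM of Oas2 where the others had 0.656 to 1.19. It also had 29.3 CPM of Oasl (others 2.30 to 3.42) and 228 CPM of Mx2 (others 9.77 to 16.7).

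The other 5 lie in 5 groups of experiment B. Oas1a was low in rat 3 of the 7-day females at 1000 mkd, at 3.63 CPM (others 13.6 to 19.7). Oas2 was low in rat 4 of the 28-day control males, at 1.18 CPM (others 2.23 to 2.44). Oas3 was high in rat 5 of the 7-day females at 300 mkd, at 3.72 CPM (others 1.58 to 1.97). Eif2ak2 was low in rat 3 of the 7-day males at 750 mkd, at 33.4 CPM (others 42.4 to 45.6), and high in rat 3 of the 28-day males at 300 mkd, at 65.8 CPM (others 42.2 to 46.2).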

How the results depend on the processing

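No result changed direction past its threshold. At 1000 mkd in experiment A 8 members were called, and 6 to 8 without 1 rat. In 7-day females at 1500 mkd members called went from 0 to 4 by DESeq2 and to 0 to 6 without 1 rat, and pathway genes from 7 to 13 by DESeq2, 0 with only the 2 groups compared and 0 to 17 without 1 rat. In 28-day males members called went from 1 to 0 with only the 2 groups, and to 0 to 1 without 1 rat, and pathway genes from 4 to 2 with only the 2 groups and to 1 to 7 without 1 rat. In 7-day males pathway genes went from 0 to 6 by DESeq2 and to 0 to 1 without 1 rat. In 28-day females pathway genes went from 20 to 7 and members called from 5 to 3 with only the 2 groups, and without 1 rat to 13 to 25 and 4 to 5. For the control comparison of the experiments, members called were 0 to 1 without 1 rat. The causes were not tested. Depth limits Oas3 most, with 7 to 39 counts per experiment A control.

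With the replicate number as a block, members called were 8 in experiment A, 0 in 7-day males, 0 in 28-day males, 0 in 7-day females and 5 in 28-day females, pathway genes in 7-day females were 0, and the median log2 fold changes were 4.11, 0.55, 0.22, 1.79 and 1.66. The same number marks different animals in different groups. In the check of replicate numbers, up to 4 of 5 pairs of a table had r above 0.1, so a link by number was not excluded.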

Other observations

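Ifit1, an interferon-induced RNA-binding protein gene, was nearly absent in some rats and abundant in others, a gene picked for mention only once its counts had been looked at. Of the rats of all groups, 88 had at most 10 counts of Ifit1 (median 3), and 19 of these were vehicle controls. A further 7 rats had 11 to 99 counts. At least 100 counts were found in 50 rats (102 to 37650), of which 5 were vehicle controls. In 28-day males Ifit1 had 0 to 6 counts in controls and 4 to 959 counts (median 157) at 1500 mkd. In 28-day females it had 0 to 5 counts in controls and 2 to 3342 counts (median 3) at 1500 mkd, so its fitted fold changes are no measure of size.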
